A study of Mus musculus with 12 samples.

Results

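The PPAR receptors and their coregulators were followed as 9 genes chosen by name, out of 35523 genes in the files. They were the receptors Pparg, Ppara and Ppard, their dimer partner Rxra, the corepressor Ncor1 and the coactivators Ncoa1, Ncoa2, Med1 and Ppargc1b. PPARs are nuclear receptors that sense fatty acids and bind DNA as heterodimers with a retinoid X receptor (RXR). Without an activating ligand, corepressor complexes built around NCoR keep target genes quiet, and binding of an agonist favours the exchange of these complexes for coactivators and for Mediator, which contacts RNA polymerase II. PPARγ drives adipocyte differentiation and is the receptor of rosiglitazone (Rosi), a thiazolidinedione.

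The cells were the stromal vascular fraction (SVF) of epididymal white adipose tissue (eWAT), a mixture of progenitor, immune and vascular cells, taken from 12-week-old male Lepob/Lepob mice, which lack leptin. All groups shared this genotype. The cells were grown to confluency in culture and given an adipogenic cocktail of 0.5 mM 3-isobutyl-1-methylxanthine, 1 µM dexamethasone and 5 µg/mL insulin. The cocktail was later replaced by maintenance medium with insulin, and cycloheximide at 100 µg/mL was added just before lysis at day 4. The groups differed in treatment (1 µM Rosi or the vehicle DMSO, Veh) and in RNA, which was either the total lysate (input) or the pooled sucrose gradient fractions of mRNAs with 3 or more ribosomes (polysome). The sources differ on these points: the ribosome limit is given elsewhere as more than 3, and the series' own description gives 3 days of differentiation where the protocols give 4. The titles of the polysome libraries say only eWAT, and the others say input. No lean mice were part of this comparison, and whether animals were pooled for a library is not given in the sources used here.

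Each group had 3 libraries, but input Veh replicates 2 and 3 held identical values for all 117135 transcripts and were counted as 1 sample (the submitters state that some raw files were lost to corruption), which left 11 libraries of 17.4 to 24.0 M estimated reads. The first principal component held 50.2% of the variance and parted the polysome libraries (-53.1 to -21.4) from input (37.2 to 44.1), with polysome Veh replicate 1 at the low end. The second (12.5%) separated the treatments. The 7 adipocyte markers summed to 268 to 279 CPM (counts scaled to library size) in input Veh and 872 to 1086 in input Rosi, with Lep at 0 in both. The sum of the 10 macrophage markers was 17038 to 19715 CPM in input Veh and 12235 to 14387 in input Rosi. Lyz2, their 1 called member of 10 tested, fell by 0.45 ± 0.08 (log2, SE) with Rosi in input (adjusted p = 0.0112, edgeR). Of all 13603 genes tested there, 0.206% were called lower. The part of these marker levels in the values of the 9 genes was not tested. In RNA from a mixture, fewer cells of a type and less RNA per cell cannot be told apart.

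Per unit of length, Ppard, Rxra and Ncor1 were the most abundant of the 9 genes and Pparg lay below them. In TPM, a level scaled by transcript length and library size, input Veh held 28.3 ± 1.97 (SD, n = 2) of Ppard, 25.3 ± 0.48 of Rxra and 23.5 ± 2.28 of Ncor1. Rxra and Ncor1 overlapped in range, and Ppard lay above both. Pparg followed at 7.12 ± 0.73 TPM, Med1 at 4.98 ± 0.56, Ncoa1 at 3.24 ± 0.10 and Ncoa2 at 3.10 ± 0.02, and no neighbours in this stretch overlapped. Ppara and Ppargc1b overlapped at the bottom, at 0.324 ± 0.380 and 0.267 ± 0.013 TPM, and the Ppara value rests on 2 and 3 reads.

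The top of the order moved between groups, while Ppara and Ppargc1b were lowest in all 4. In input Rosi the leading level was that of Ncor1, at 28.2 ± 1.33 TPM (n = 3), overlapping Rxra at 27.3 ± 3.48, which overlapped Ppard at 24.0 ± 2.28. On polysomes Ncor1 stood alone at the top, at 34.2 ± 2.44 TPM in Veh and 35.5 ± 3.39 in Rosi, while Rxra and Ppard overlapped each other below it in both. Ranked instead by counts per kilobase, Rxra came above Ncor1 in every group other than polysome Rosi. That length was the plain mean over all annotated transcripts of a gene, with or without reads. It is not the length of the mRNA read, which for Rxra was 4905 bases in the transcript with 99.97% of its reads.

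**Figure D1:**
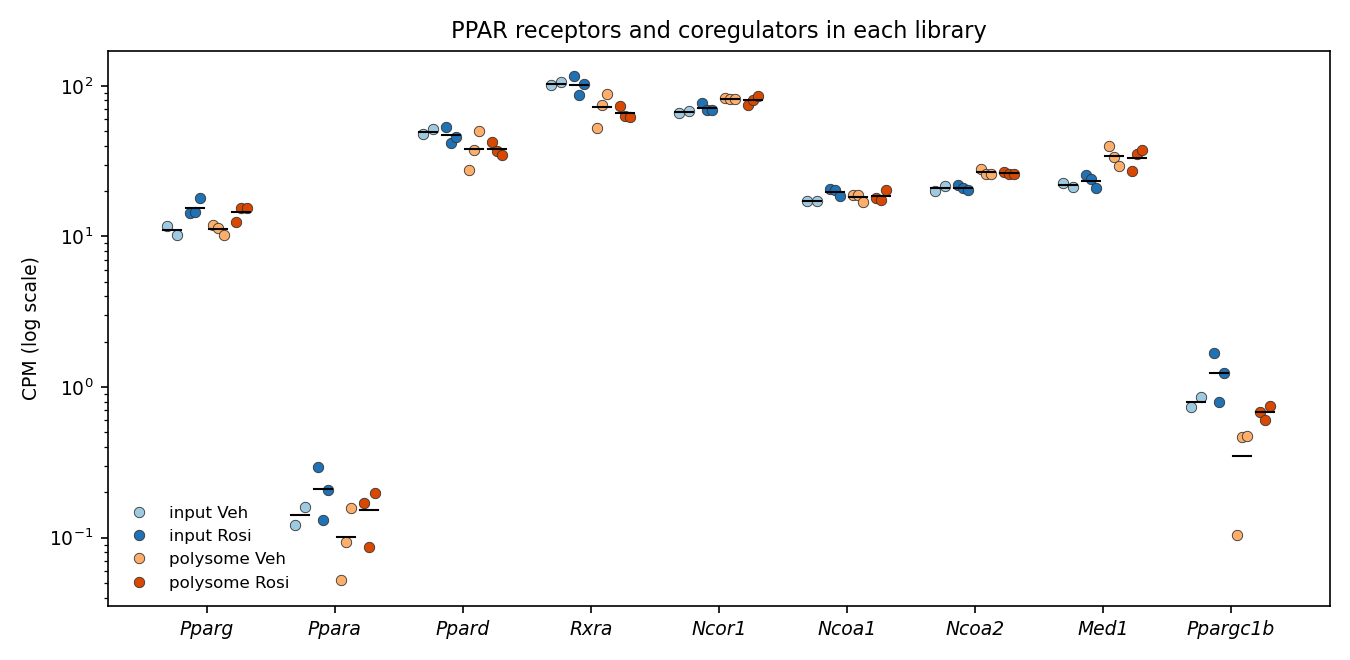
CPM of the 9 genes (log axis) in each of the 11 libraries, coloured by group, with a short line at each group mean. Rxra lies near 100 CPM in input, Pparg between 10.1 and 17.9, and Ppara and Ppargc1b below 2.

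Pparg, the receptor of Rosi, was higher in every Rosi library than in any Veh library, in input and on polysomes alike, without passing the test in either. Its level was 11.7 and 10.2 CPM in input Veh, and 14.2, 14.5 and 17.9 in input Rosi. Polysome Veh had 11.9, 11.4 and 10.1 CPM, and polysome Rosi 12.5, 15.4 and 15.5. Input Rosi replicate 3 was the highest of the 11 libraries, and neither pair of groups overlapped.

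The log2 fold change of Pparg with Rosi was 0.57 ± 0.15 (SE) in input, a fold of 1.48 (adjusted p = 0.0947, edgeR's quasi-likelihood test), and 0.37 ± 0.14 on polysomes, a fold of 1.29 (adjusted p = 0.936). The input value passed without input Rosi replicate 1 (0.64 ± 0.15, adjusted p = 0.0113), with the identical library counted a second time (0.60 ± 0.12, adjusted p = 0.0285) and with no filter on low counts (0.57 ± 0.16, adjusted p = 0.00929). Without input Rosi replicate 3 it was 0.44 ± 0.17 (adjusted p = 0.349), and over all 5 libraries left out in turn it ran from 0.44 to 0.68.

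Mouse Pparg lies on chromosome 6, at chr6:115360951-115490399 on the plus strand (mm10), and its isoforms differ at their start. The γ1 coding region is carried by Pparg-202 and Pparg-204 (1425 coding bases each) and the γ2 coding region by Pparg-201 (1515 coding bases), which begins 90 coding bases earlier and then holds the whole γ1 region. The γ2 protein is the form known to be enriched in adipocytes. The first 30 coding bases of each, from GENCODE M21, are shown because the 2 coding regions start at different places. The start codon is in capitals, and the γ1 stretch also lies within the γ2 coding region:
Pparg-201, γ2, chr6:115422111-115422140, plus strand: ATGggtgaaactctgggagattctcctgtt
Pparg-202 and Pparg-204, γ1, chr6:115439848-115439877, plus strand: ATGgttgacacagagatgccattctggccc

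Each isoform also has a start site of its own. The 30 bases before the RefSeq start sites nearest to the γ2 and γ1 transcripts (GRCm38.p6) are shown for their base composition, with no part in capitals:
γ2, chr6:115422036-115422065, plus strand: ttaaccaaccaatcttttgcaagacataga
γ1, chr6:115361114-115361143, plus strand: tcaggtcagagtcgccccgggccacgcggc

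Over the 250 bases before the start, G and C made up 40.8% at γ2 and 82.4% at γ1, around a median of 52.4% over 32851 RefSeq promoter windows, and the RefSeq γ1 start lay 193 bases from that of GENCODE. A pair of receptor core motifs 1 base apart, the arrangement that a PPAR and RXR dimer is known to bind, was searched on both strands of the windows from 250 bases before to 50 after the start. The letters AGGTCANAGGTCA were in 0 of the 11 windows of the 7 member genes that RefSeq matched, and in 0.0396% of all windows. The core motif AGGTCA, which the longer motif contains, was in 3 of the 11 and in 16.3% of all.

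Reads assigned to γ2 were absent from both input Veh libraries and present in all 3 input Rosi libraries. The estimated γ2 count was 0 and 0 in input Veh, and 24.2, 103 and 60.2 in input Rosi. Polysome Veh had 47.3, 0 and 89.5 counts, and polysome Rosi 111, 43.3 and 112. Input parted the treatments without overlap, and on polysomes the Veh libraries spanned the range from 0 up to a level within that of Rosi.

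As a share of the Pparg counts, γ2 made up 0% and 0% in input Veh, and 8.39%, 31.4% and 14.0% in input Rosi. The shares on polysomes were 20.7%, 0% and 46.4% in Veh, and 38.2%, 12.2% and 36.1% in Rosi. The mean difference of Rosi and Veh was 18.0 percentage points in input, with an exact two-sided permutation p of 0.2, the smallest that 3 against 2 libraries can give, and 6.44 points on polysomes (exact permutation p = 0.7). Polysome and input differed by 22.4 points in Veh (exact permutation p = 0.6) and by 10.9 points in Rosi (exact permutation p = 0.3, with 0.1 the smallest possible). Without polysome Veh replicate 2, which had no γ2 read, the polysome difference with Rosi turned to -4.75 points.

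Set against a floor of 3 counts over the input Veh group, the estimated γ2 level in input Rosi was 32.7-fold higher. The floor covers counting error only and not the split of shared reads between isoforms, so this fold is no lower limit. The fold was 17.5 without input Veh replicate 1, 15.2 without input Veh replicate 2 (each with less depth behind the floor) and 22.2 without input Rosi replicate 2. Against the same floor of 3 counts over the input Veh group, polysome Veh was 26.8-fold higher and polysome Rosi 46.8-fold. A high fold over this floor was thus not particular to Rosi. In the test over transcripts, Pparg-201 was not called for Rosi in input (adjusted p = 0.322, with 0.00983% of 30512 transcripts called). For polysome over input in Veh its adjusted p was 0.0592 (6.41% of 34946 transcripts called), and it passed, at 0.0482, once transcripts had to reach 10 counts in every library of 1 group. These counts are split from shared reads, since 127 of the 1767 bases of Pparg-201 are in no other Pparg transcript.

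The γ1 coding region held the rest, other than 1.15 to 2.54 counts of minor transcripts in 3 libraries. It was at 11.7 and 10.2 CPM in input Veh, and at 13.0, 9.93 and 15.3 in input Rosi. Polysome Veh had 9.45, 11.4 and 5.40 CPM, and polysome Rosi 7.72, 13.6 and 9.80. Both pairs of groups overlapped for γ1, unlike for the sum of all Pparg reads. Within γ1, Pparg-204 was at 0 in input Veh replicate 1 and polysome Veh replicate 3 and took 37.0 to 140 counts in the other 9 libraries.

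**Figure D2:**
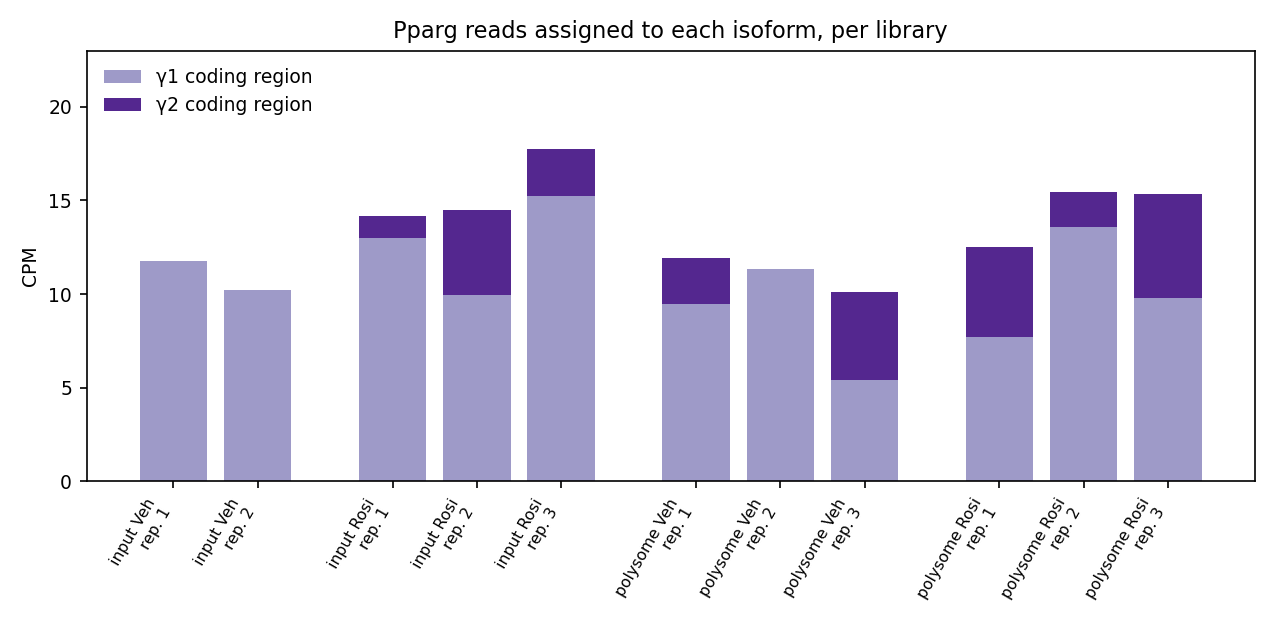
Pparg CPM in each library, stacked by the coding region its reads were assigned to. γ2 is at 0 in both input Veh libraries and in polysome Veh replicate 2, and reaches 5.53 CPM in polysome Rosi replicate 3.

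The other receptors differed widely in level. Ppara, the receptor that drives fatty acid oxidation in liver (chr15:85734983-85802819, plus strand, mm10 as for all genes here), had 1 to 6 reads per library, or 0.0520 to 0.296 CPM, and was too low to test. Its highest library was input Rosi replicate 1 and its lowest polysome Veh replicate 1, and all groups overlapped in counts.

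Ppard, the broadly expressed receptor (chr17:28232700-28301474, plus strand), was at 47.6 and 51.3 CPM in input Veh and at 52.9, 42.0 and 45.6 in input Rosi. Its polysome levels were 27.8, 37.3 and 49.8 CPM in Veh and 42.1, 36.9 and 34.5 in Rosi. The treatments overlapped in both kinds of RNA, and polysome Veh spread more widely than any other group. Its log2 fold change with Rosi was -0.01 ± 0.11 in input (adjusted p = 0.965) and -0.03 ± 0.18 on polysomes (adjusted p = 1.00).

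The TPM of Ppard over that of Pparg was 3.53 and 4.50 in the input Veh libraries and ran from 1.74 to 2.59 in input Rosi, and the groups did not overlap. The ratio was not tested, and 36.7% of all genes did not overlap in their own level between these groups. On polysomes the same ratio ran from 1.46 to 3.41 in Veh and from 1.18 to 2.80 in Rosi, with overlap.

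Rxra (chr2:27676440-27762957, plus strand) encodes the retinoid X receptor alpha, a partner with which PPARs bind DNA. It was at 100.5 and 106 CPM in input Veh and at 116, 86.8 and 102 in input Rosi, with overlap. The polysome libraries held 52.8, 74.4 and 88.4 CPM in Veh and 73.8, 62.7 and 62.1 in Rosi, again with overlap. The log2 fold changes with Rosi were 0.05 ± 0.11 in input (adjusted p = 0.856) and -0.13 ± 0.16 on polysomes (adjusted p = 1.00). Of the other retinoid X receptors, Rxrb was not called with Rosi in either, and Rxrg had too few reads to test.

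Ncor1, the corepressor (chr11:62316426-62458541, minus strand), was at 66.0 and 67.7 CPM in input Veh and at 76.7, 68.6 and 68.6 in input Rosi. The groups did not overlap, but the gap between them was under 1 CPM, and the log2 fold change was 0.16 ± 0.09 (adjusted p = 0.385). Polysome levels were 82.9, 81.6 and 81.6 CPM in Veh and 74.3, 80.8 and 85.5 in Rosi, with overlap and a log2 fold change of -0.04 ± 0.10 (adjusted p = 1.00). Exons of Ncor1 overlap those of Ttc19 and Pigl on the other strand, at mean levels of 13.7 and 2.99 TPM, and whether the counting used strand is not given in the sources used here.

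Ncoa1, a p160 coactivator that recruits histone acetyltransferases (chr12:4247362-4477182, minus strand), was at 17.1 CPM in both input Veh libraries and at 20.6, 20.3 and 18.6 in input Rosi. The groups did not overlap, and the log2 fold change of 0.28 ± 0.12 did not pass (adjusted p = 0.244). On polysomes it was at 18.8, 18.7 and 16.9 CPM in Veh and at 18.0, 17.4 and 20.4 in Rosi, with overlap (log2 fold change 0.02 ± 0.12).

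Ncoa2, its paralog (chr1:13139105-13374083, minus strand), was in input at 20.1 and 21.8 CPM in Veh and 21.9, 21.0 and 20.3 in Rosi. Its polysome levels were 27.8, 25.8 and 26.0 CPM in Veh and 26.9, 25.9 and 25.9 in Rosi. The treatments overlapped in both, with log2 fold changes of 0.08 ± 0.11 and -0.03 ± 0.11.

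Med1, the Mediator subunit that contacts nuclear receptors (chr11:98152154-98193293, minus strand), was at 22.8 and 21.4 CPM in input Veh and 25.5, 24.1 and 20.9 in input Rosi. Polysome levels were 39.6, 33.8 and 29.4 CPM in Veh and 27.2, 35.1 and 37.7 in Rosi. The treatments overlapped in both, with log2 fold changes of 0.16 ± 0.12 and -0.05 ± 0.15.

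Ppargc1b, which encodes the coactivator PGC-1β of oxidative metabolism, lies on chromosome 18 and was rare. It had 12 and 16 reads in input Veh and 34, 18 and 30 in input Rosi, and 2, 10 and 9 in polysome Veh and 16, 14 and 15 in polysome Rosi. In CPM the input groups overlapped and the polysome groups did not. The log2 fold change with Rosi was 0.69 ± 0.45 in input (adjusted p = 0.448) and 0.93 ± 0.51 on polysomes (adjusted p = 1.00), and the latter was 0.52 ± 0.46 without polysome Veh replicate 1, the library with 2 reads.

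**Figure D3:**
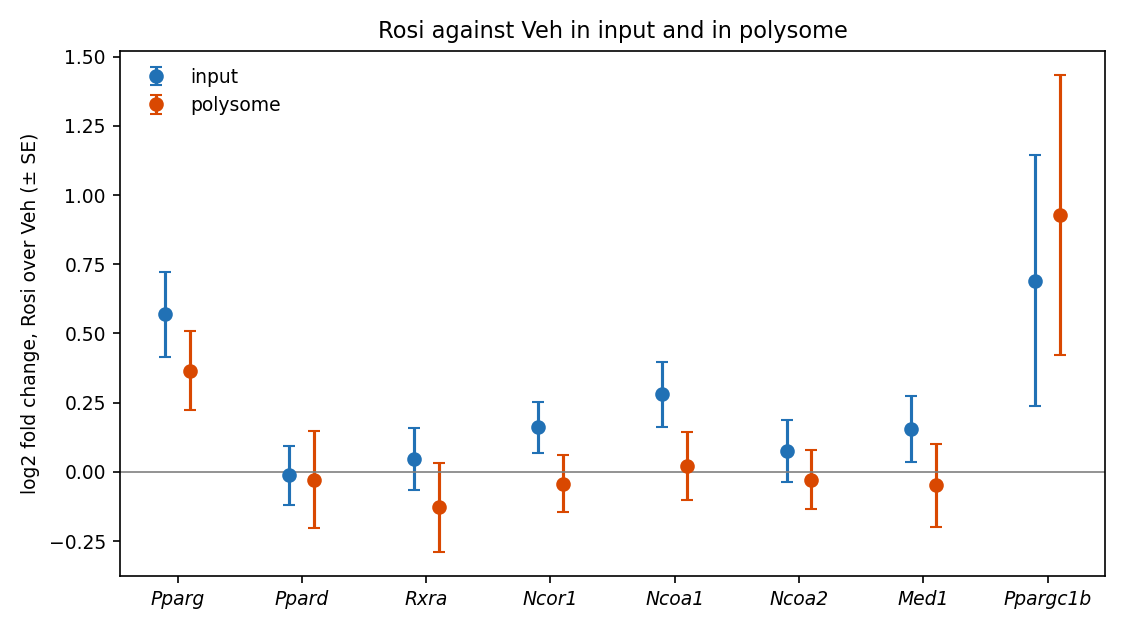
Log2 fold change of Rosi over Veh for the 8 genes with enough reads to test, in input (blue) and on polysomes (orange), with bars of 1 SE. Pparg lies at 0.57 in input and 0.37 on polysomes, and Ppargc1b at 0.69 and 0.93 with the widest bars.

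Counted together, 0 of the 8 members tested were called for Rosi in input, where 1.34% of 13603 genes were called, and 0 of 8 on polysomes, where 0.655% of 13436 were. At an unadjusted p under 0.05 there were 2 of 8 in input, Pparg and Ncoa1, beside 17.0% of all genes, and 1 of 8 on polysomes, Pparg, beside 4.73%. DESeq2 called none of them either. Groups that did not overlap were seen for 3 of 8 members in input (Pparg, Ncor1 and Ncoa1, all higher with Rosi), beside 36.7% of all genes (12.8% higher and 23.9% lower), and for 2 of 8 on polysomes (Pparg and Ppargc1b, both higher), beside 8.95% (4.58% higher and 4.37% lower). The median log2 fold change of the members was 0.16 in input, beside 0.01 over all genes, and -0.03 on polysomes, beside -0.01.

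Genes known to be regulated by PPARγ were counted from a list. Of 25 PPARγ targets tested, 18 were higher with Rosi in input and 16 on polysomes, beside 1.13% and 0.633% of all genes called higher, and 0 were lower, beside 0.206% and 0.0223%. Cidec, a lipid droplet protein, changed by 7.80 ± 0.20 and 7.55 ± 0.20 (log2) and Adipoq, the adipokine adiponectin, by 6.38 ± 0.28 and 5.61 ± 0.23. Adipocyte markers summed to 358 to 501 CPM in polysome Veh and 1635 to 2003 in polysome Rosi, and 5 of those 7 markers are also on the list of targets (Adipoq, Plin1, Cidec, Fabp4 and Lpl).

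Coregulators outside the 9 genes were counted likewise. With Rosi, 0 of 17 other nuclear receptor coactivators, 0 of 14 other corepressors and 0 of 16 enzymes that modify or degrade PPARγ were called in input, and 0 of the same numbers on polysomes. The Mediator kinase Cdk8 was 1 of 29 other Mediator subunits called, and rose by 0.55 ± 0.11 in input (adjusted p = 0.0337), while 0 of 29 were called on polysomes. Of all genes tested, 1.34% were called in input and 0.655% on polysomes. Median log2 fold changes of these 4 lists lay between -0.05 and 0.08 in input and between -0.05 and 0.03 on polysomes.

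Polysome over input asked which mRNAs were enriched among those with several ribosomes. In Veh, the coregulators Med1, Ncoa2 and Ncor1 were higher on polysomes, at log2 fold changes of 0.63 ± 0.16, 0.34 ± 0.11 and 0.30 ± 0.10 (adjusted p = 0.00376, 0.0148 and 0.0247), and Rxra was lower, at -0.52 ± 0.17 (adjusted p = 0.0203). These 4 of 8 passed on adjusted p alone, as did 49.3% of 14042 genes, and 0 of 8 passed with the log2 fold change over 1 that a call required, beside 9.67%. From the values given above, none of the 4 overlapped between polysome and input in Veh, and with Ppargc1b that made 5 of 8, 3 higher and 2 lower, beside 64.0% of all genes (32.5% higher and 31.5% lower).

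In Rosi the order was alike. Med1 was at 0.50 ± 0.14, Ncoa2 at 0.32 ± 0.09 and Rxra at -0.62 ± 0.16 (adjusted p = 0.0057, 0.00957 and 0.00334), and Ncor1 at 0.17 ± 0.09 did not pass (adjusted p = 0.123). That made 3 of 8 on adjusted p alone, beside 55.1% of all genes, and 0 of 8 called, beside 11.3%. Groups that did not overlap were those of Ncoa2, Med1, Rxra and Ppargc1b, 2 higher and 2 lower, or 4 of 8 beside 65.4% of all genes (33.7% higher and 31.7% lower). Progenitor markers summed to 4025 to 5177 CPM over the input libraries and to 1798 to 2390 over the polysome libraries. Most of that sum was Col1a1, at a mean of 3969 CPM in input Veh and 1316 in polysome Veh. Over the 8 markers, median log2 polysome over input was -0.06 in Veh and 0.06 in Rosi. Of the 8, 4 lay above 0 in Veh and 5 in Rosi. The part of these markers in the values of the members was not tested.

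The remaining members did not pass in either treatment. Pparg was at 0.02 ± 0.15 in Veh and -0.10 ± 0.13 in Rosi, Ncoa1 at 0.09 ± 0.12 and -0.09 ± 0.10, and Ppard at -0.37 ± 0.18 and -0.31 ± 0.16. Ppargc1b was lowest, at -1.17 ± 0.56 (adjusted p = 0.0967) and -0.86 ± 0.44 (adjusted p = 0.108).

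Single libraries moved some of these values. Without polysome Veh replicate 1, the lowest of its group for Rxra and Ppard and the highest for Med1, Rxra in Veh was at -0.35 ± 0.13 (adjusted p = 0.0399), Med1 at 0.51 ± 0.15 (adjusted p = 0.0125) and Ppargc1b at -0.76 ± 0.53 (adjusted p = 0.259). Without polysome Veh replicate 3, Ppard was at -0.60 ± 0.15 (adjusted p = 0.00415). With either input Veh library left out, Rxra (adjusted p = 0.062 and 0.11) and Ncor1 (adjusted p = 0.124 and 0.0904) lost the threshold in Veh and Med1 kept it, while Ncoa2 lost it without replicate 1 (adjusted p = 0.115). In Rosi, Rxra, Ncoa2 and Med1 passed on adjusted p alone with each of the 11 libraries left out in turn.

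Base composition ran alongside this order. G and C made up 46.7% of the most read mRNA of Med1, 48.3% of Ncoa2, 48.7% of Ncoa1, 49.2% of Ncor1 and 50.2% of Pparg, and 57.0% of Rxra, 57.8% of Ppargc1b and 59.8% of Ppard. That mRNA held only 35.0% of the reads of Ncor1 and 55.8% of those of Ncoa2 and of Pparg. For the others named it held at least 83.1%. The coregulators at the low end of G and C had values above 0 in Veh, and the 3 members over 55% had values below 0 in both treatments.

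The same gradient held over all 13147 genes with a coding mRNA. The median log2 polysome over input in Veh was 0.53 for genes with up to 45% G and C, 0.26 from 45 to 50%, -0.21 from 50 to 55% and -0.53 above 55%, and in Rosi it was 0.70, 0.20, -0.24 and -0.44. Rxra in Veh, at -0.52, lay at the median of its band, and Ppard in both treatments lay within the middle 50% of it. Med1 in Veh, at 0.63, lay above the upper quartile of 0.55 for its band, and Ppargc1b, at -1.17, below the lower quartile of -0.88. The part of base composition in the difference between fractions was not tested.

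**Figure D4:**
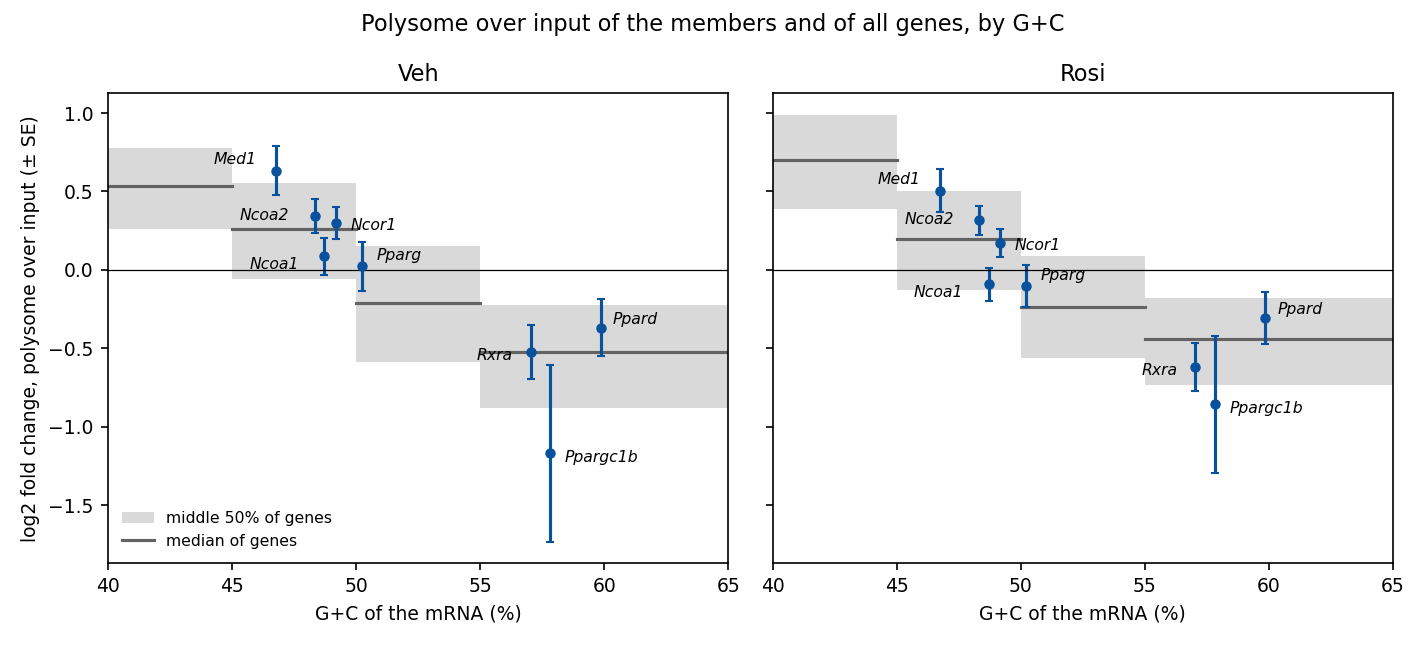
Log2 polysome over input of the 8 members (points with bars of 1 SE) against the G and C content of their most read mRNA in percent, in Veh (left) and Rosi (right). Grey boxes and lines give the middle 50% and the median of all genes in 4 bands of G and C, which step down from 0.53 to -0.53 in Veh, and 6 of the 8 members lie inside the boxes in each treatment, with Med1 above and Ppargc1b below.

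Coding length ran the other way for the 4 long members. Genes with over 4000 coding bases had a median of -0.35 in Veh and -0.42 in Rosi, with an upper quartile of 0.15 and 0.18. Ncor1 (5172 coding bases in its most read mRNA, 7362 in some others), Med1 (4725) and Ncoa2 (4179) lay above that quartile in Veh. In Rosi, Med1 and Ncoa2 did. The band of 45 to 50% G and C holds Ncor1, Med1, Ncoa2 and Ncoa1 (4215). Among its 208 genes with over 4000 coding bases, the median was 0.01 in Veh and -0.04 in Rosi.

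Some relatives of the coactivators lay below 0. Ncoa3, the third p160 coactivator, was at -0.53 ± 0.14 and -0.55 ± 0.12 (50.3% G and C), with an adjusted p of 0.00513 and 0.00159 that passed without reaching the fold. Among the other Mediator subunits, Med12 was called lower at -1.31 ± 0.18 and -1.49 ± 0.16 (52.2%), while Cdk8 in Veh and Ccnc, Med21 and Med13 in Rosi were called higher.

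By list, polysome over input called 3 of 17 other coactivators lower in Veh (Smarca4, Pprc1 and Kmt2d) and 2 in Rosi (Pprc1 and Kmt2d), with none higher. Other Mediator subunits gave 1 higher and 2 lower of 29 in Veh, and 4 higher and 1 lower in Rosi. Over all genes 2.99% were called higher and 6.68% lower in Veh, and 6.49% and 4.86% in Rosi.

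Translation efficiency, the change with Rosi in polysome over input, was called for 0 of 8 members. The log2 differences ran from -0.18 ± 0.16 (Ncoa1) to 0.31 ± 0.70 (Ppargc1b), with Pparg at -0.12 ± 0.20, and every adjusted p was 0.815 or higher. None of 14042 genes (0.0%) were called by edgeR, 961 (6.84%) had an unadjusted p under 0.05, and DESeq2 called 1. The standard errors of 0.14 to 0.24 for the 7 members other than Ppargc1b limit the size of difference that could be seen.

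At the level of transcripts, 0 of 29 member transcripts were called for Rosi in input and 0 of 29 on polysomes (0.0609% of 27932), 0 of 33 for polysome over input in either treatment (7.62% in Rosi) and 0 of 33 for translation efficiency (0.0258%). Rxra-201, the single Rxra transcript with nearly all reads, was close to its gene in size for polysome over input. It was at -0.47 ± 0.18 in Veh (adjusted p = 0.116, edgeR) and -0.61 ± 0.16 in Rosi (adjusted p = 0.0268). The gene passed on adjusted p alone in both treatments. For Ncor1 and Ncoa2 the split between transcripts was unstable. Ncor1-201 and Ncor1-204 share a coding length of 7362 bases, and each library gave all their reads to one and 0 to the other, with Ncor1-201 used in input Veh replicate 1 and input Rosi replicates 2 and 3 only. Their sum ran from 18.9 to 32.6 CPM. Ncoa2-202 and Ncoa2-203, both of 4179 coding bases, divided their reads in ratios from 0 and 536 counts (polysome Veh replicate 2) to 423 and 20.9 (input Rosi replicate 2), while their sum stayed between 19.3 and 27.5 CPM. No change of isoform was read from these pairs.

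The genes whose level was most like that of Pparg, by Pearson's r of log2 CPM over the 11 libraries among 11850 genes, were Nav3 (0.89), Maoa (0.88), Rrm2 (0.88), Gpat3 (0.88) and Acadl (0.87). The libraries share treatment and fraction, so these values describe a shared pattern over 4 groups. Ppara and Ppargc1b lay below the lowest mean level admitted to this comparison and were left out. Of the members compared, Ncoa1 was nearest, at rank 304 (r = 0.55), and Med1, Ncor1, Rxra, Ppard and Ncoa2 had values from -0.25 to -0.02.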

How the data were processed

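RNA was sequenced from 12 libraries of poly(A) RNA. Per the submitters' notes, demultiplexing used bcl2fastq 2.17, read quality was inspected in FastQC, transcripts were quantified by Salmon (mm10) and groups compared by DESeq2, and other versions are not given in the sources used here. The authors deposited an estimated count, a TPM and an effective length for each transcript in each library, and 1162 of 117135 transcripts (0.381 to 0.464% of reads) matched no gene of GENCODE M21. Estimated counts were summed to genes, rounded and tested with edgeR 4.0.16 (TMM factors, filterByExpr, quasi-likelihood, two-sided, Benjamini-Hochberg over all genes tested), with a script checked on simulated data. Genes were called below an adjusted p of 0.05 if the log2 fold change exceeded 0.2 in size (Rosi against Veh) or 1 (polysome over input, and translation efficiency as an interaction term). Input and polysome were each fitted alone for Rosi. The fit of all 4 groups gave the other comparisons and the library sizes behind CPM.

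Errors of fold changes are SEs, the log2 fold change divided by the root of the F statistic, and errors of levels are SDs. The labels call the libraries biological replicates, and p-values measure only their spread. The genes named were all 9 members, up to 4 called members of each list with the smallest p, the 5 genes most correlated with Pparg and the main or called transcripts. Ncoa3 and Rxrb, close relatives of members, were added after their values were seen, as were the bands of G and C and of coding length. The 9 genes and all lists were chosen with earlier results of these data known. Some genes of the lists are not reported here. Alternatives tried were DESeq2, other factors, filters and fits, TPM with a pseudocount of 1, and each library left out.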

Additional observations from a re-analysis of the deposited data

How the results depend on the processing

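No called member was lost, since none was called. 1 member, Pparg, became called for Rosi in input with no count filter, with all 12 libraries, and in 1 of the leave-one-out fits (0 to 1). For polysome over input in Veh, 1 member, Ppargc1b, was called with all 12 libraries (-1.20 ± 0.47, adjusted p = 0.0375). Without the fold threshold, the main setting passed 4 members in Veh and 3 in Rosi, and over all settings the number ran from 1 (without input Veh replicate 1) to 6 (all 12 libraries) in Veh and from 3 to 4 in Rosi. 1 transcript, Pparg-201, was called for polysome over input in Veh under the stricter filter of 10 counts. The causes were not tested. Values that were near 0 and changed sign were as follows. For Rosi in input, Rxra was -0.020 in 1 fit of all 4 groups. For Rosi on polysomes, limma on log2(TPM + 1) gave Ppard 0.16, Ncor1 0.052, Ncoa1 -0.24 and Ncoa2 0.00075. Ppard was -0.0067 for translation efficiency with upper quartile factors. With 1 library left out, the ranges were -0.10 to 0.050 for Ppard and -0.049 to 0.14 for Rxra in input. On polysomes they were -0.21 to 0.20 for Ppard, -0.31 to 0.045 for Rxra, -0.091 to 0.024 for Ncor1, -0.046 to 0.068 for Ncoa1, -0.043 to 0.0094 for Ncoa2 and -0.15 to 0.092 for Med1. For polysome over input, Pparg ran from -0.075 to 0.12 in Veh and from -0.16 to 0.011 in Rosi. For translation efficiency they were -0.12 to 0.29 for Ppard, -0.27 to 0.076 for Rxra, -0.084 to 0.027 for Ncoa2 and -0.10 to 0.59 for Ppargc1b. The γ2 share with Rosi on polysomes ran from -4.75 to 18.5 percentage points.

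Libraries with the same replicate number did not deviate together (r from -0.23 to 0.11, 1 of 15 pairs over 0.1). With so few libraries in each group, this check cannot tell whether the numbers pair them. With the replicate number as a block, Ppard with Rosi on polysomes was 0.0051 and Pparg for polysome over input in Veh -0.0099, no member was called, and genes called with Rosi went from 182 to 187 in input and from 88 to 102 on polysomes.

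Over all genes, calls for Rosi in input were 385 with DESeq2, 907 with no count filter, 1054 with all 12 libraries, 57 with limma and 77 in 1 fit of all 4 groups, and 66 to 1580 with 1 library left out. On polysomes they were 189 with no filter and 37 with limma, and 55 to 179 with 1 library left out. For translation efficiency they were 57 with no filter and 9 without polysome Veh replicate 1. Ppara and Ppargc1b are limited by depth, at 1 to 34 reads per library.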
